A study of Mus musculus with 16 samples.

Results

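The transcripts that encode the machinery for making and releasing exosomes were followed in MC/9 cells and in the exosomes that these cells shed, with and without oxidative stress. The machinery was taken as a named list of 46 genes, and a probe set was counted for a gene when its annotation gave that gene symbol and no other. All 46 genes were found, with 103 probe sets, among the 18193 genes and 34945 probe sets that carried a single symbol. By role they were 3 genes of ESCRT-0 (Hgs, Stam, Stam2), 5 of ESCRT-I (Tsg101, Vps28, Vps37a, Vps37b, Vps37c), 3 of ESCRT-II (Snf8, Vps25, Vps36) and 11 of ESCRT-III (Chmp1a, Chmp1b, Chmp2a, Chmp2b, Chmp3, Chmp4b, Chmp4c, Chmp5, Chmp6, Chmp7, Ist1). The others were 3 genes for the VPS4 ATPase and its cofactor LIP5 (Vps4a, Vps4b, Vta1), 5 of the ALIX route (Pdcd6ip, Pdcd6, Sdcbp, Sdc1, Sdc4), 7 small GTPases (Arf6, Rab27a, Rab27b, Rab11a, Rab35, Rab7, Rab5a), 2 neutral sphingomyelinases (Smpd2, Smpd3), 3 genes for flotillins and annexin A2 (Flot1, Flot2, Anxa2) and 4 SNARE proteins (Snap23, Vamp7, Vamp8, Stx4a). Each gene was read from its probe set of highest mean signal over all arrays, and 17 genes had no other.

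Exosomes form when the membrane of a late endosome buds inward and the resulting multivesicular body fuses with the plasma membrane. In this process ESCRT-0 gathers ubiquitinated cargo, ESCRT-I and ESCRT-II shape the bud, ESCRT-III filaments close its neck and VPS4 takes the filaments apart. ALIX (Pdcd6ip) gives a side entry to ESCRT-III, through syntenin (Sdcbp), which binds syndecans, and with ARF6 upstream. Neutral sphingomyelinases make ceramide, which can bend membranes without ESCRT, and RAB27A, RAB27B, RAB11A and RAB35 are known for bringing vesicle-filled endosomes to the cell surface, where SNARE proteins drive fusion. Mast cells use the same SNARE proteins when they release their granules.

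The study held 4 groups of 4 arrays, each with total RNA of MC/9, a mouse mast cell line grown in DMEM with bovine serum and the supplement Rat T-Stim. Exosomes and cells from normal conditions are named norm exo and norm cell, and those from oxidative stress (125 µM H2O2 for 24 h) oxi exo and oxi cell. Exosomes had been cleared through a 0.22 µm filter and pelleted at 120000 g for 70 min. Sample titles name the cells by condition and the descriptions call them recipients of exosomes, whereas the study's text treats them as the exposed donors, so oxi cell is used here for the condition in the title. The study's text describes one pair of norm cell samples and one pair of norm exo samples as coming from different cultures. The labels do not say this of the numbered arrays, so for the others p-values measure a spread that may be technical.

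The deposited signals were scaled by the authors to the same trimmed mean on every array, so a signal is a share of what an array detected and not an amount of RNA. In pooled material, fewer vesicles or cells with a transcript and less of it in each cannot be told apart. As background of an array served the 95th percentile of the signals of 208 probe sets for genes of unrelated tissues, such as odorant receptors and crystallins. For exosomes it came to 218 ± 25.3 (SD, n = 4) without and 240 ± 14.7 with oxidative stress, for cells to 14.6 ± 0.595 and 12.0 ± 1.35, and the spiked control transcripts were likewise 16.2-fold (norm) and 19.6-fold (oxi) brighter on exosome arrays than on cell arrays. Log2 signals of replicate arrays correlated at 0.533 to 0.625 within an exosome group and at 0.913 to 0.925 within a cell group across all probe sets, and the 3' probe set of the actin control exceeded its 5' probe set 5.35-fold (norm exo) and 3.86-fold (oxi exo) against 1.43-fold and 1.38-fold in the matching cells. Of 18 mast cell markers, 14 were above background on all norm cell arrays and 15 on all oxi cell arrays, with the mast cell proteases Mcpt1, Mcpt4 and Mcpt8 on no cell array. In exosomes 7 (norm) and 2 (oxi) of these markers were above background on all arrays. Of 43 markers of lymphocytes, macrophages, neutrophils, erythroid cells, fibroblasts and endothelium, 4 were above background on all norm cell arrays (Ighm, Csf1r, Epor, Pecam1), 6 on all oxi cell arrays (these with Zap70 and Cd68) and 2 on all arrays of each exosome group (Zap70, Ighm). Of the 10 T cell markers, Cd3d, Cd3g, Cd4, Cd8a, Cd8b1 and Cd2 reached it on no array. Cd3e did so on part of the oxi exo arrays, Themis on part of the oxi exo and norm cell arrays, and Cd5 on part of the oxi cell arrays.

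In cells nearly the whole machinery was expressed. Of the 46 genes, 41 (89.1%) were above background on all 4 norm cell arrays and 42 (91.3%) on all 4 oxi cell arrays, against 50.8% and 51.4% of all 18193 genes. This held for every gene of ESCRT-0, ESCRT-I, ESCRT-II, VPS4 and LIP5, the small GTPases and the SNARE proteins in both conditions. Chmp4c, an ESCRT-III subunit of the cytokinesis checkpoint, and the heparan sulphate proteoglycans Sdc1 and Sdc4 were above background on no cell array, though a dimmer probe set of Sdc1 was on 1 array of each cell group. Smpd3, the neutral sphingomyelinase usually linked to exosomes, reached background on 1 norm cell array and 1 oxi cell array, and Anxa2, which links membranes to actin, on 1 norm cell array and on all 4 oxi cell arrays.

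In exosomes few of these transcripts could be told from background. In norm exo 6 genes (13.0%) were above background on all 4 arrays, against 7.15% of all genes, namely Hgs, Vps37b, Chmp4b, Sdcbp, Arf6 and Flot1, while 10 reached it on some arrays and 30 on none. In oxi exo Chmp4b alone (2.17%) was above background on all 4 arrays, against 4.25% of all genes, with 8 genes on some arrays and 37 on none. At the 99th percentile of the background probe sets these counts were 1 in norm exo and 0 in oxi exo, whereas 39 genes passed in each cell group. Leaving out replicate 3 gave 8 genes in norm exo, and leaving out replicate 2 or replicate 4 gave 2 in oxi exo.

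**Figure D1:**
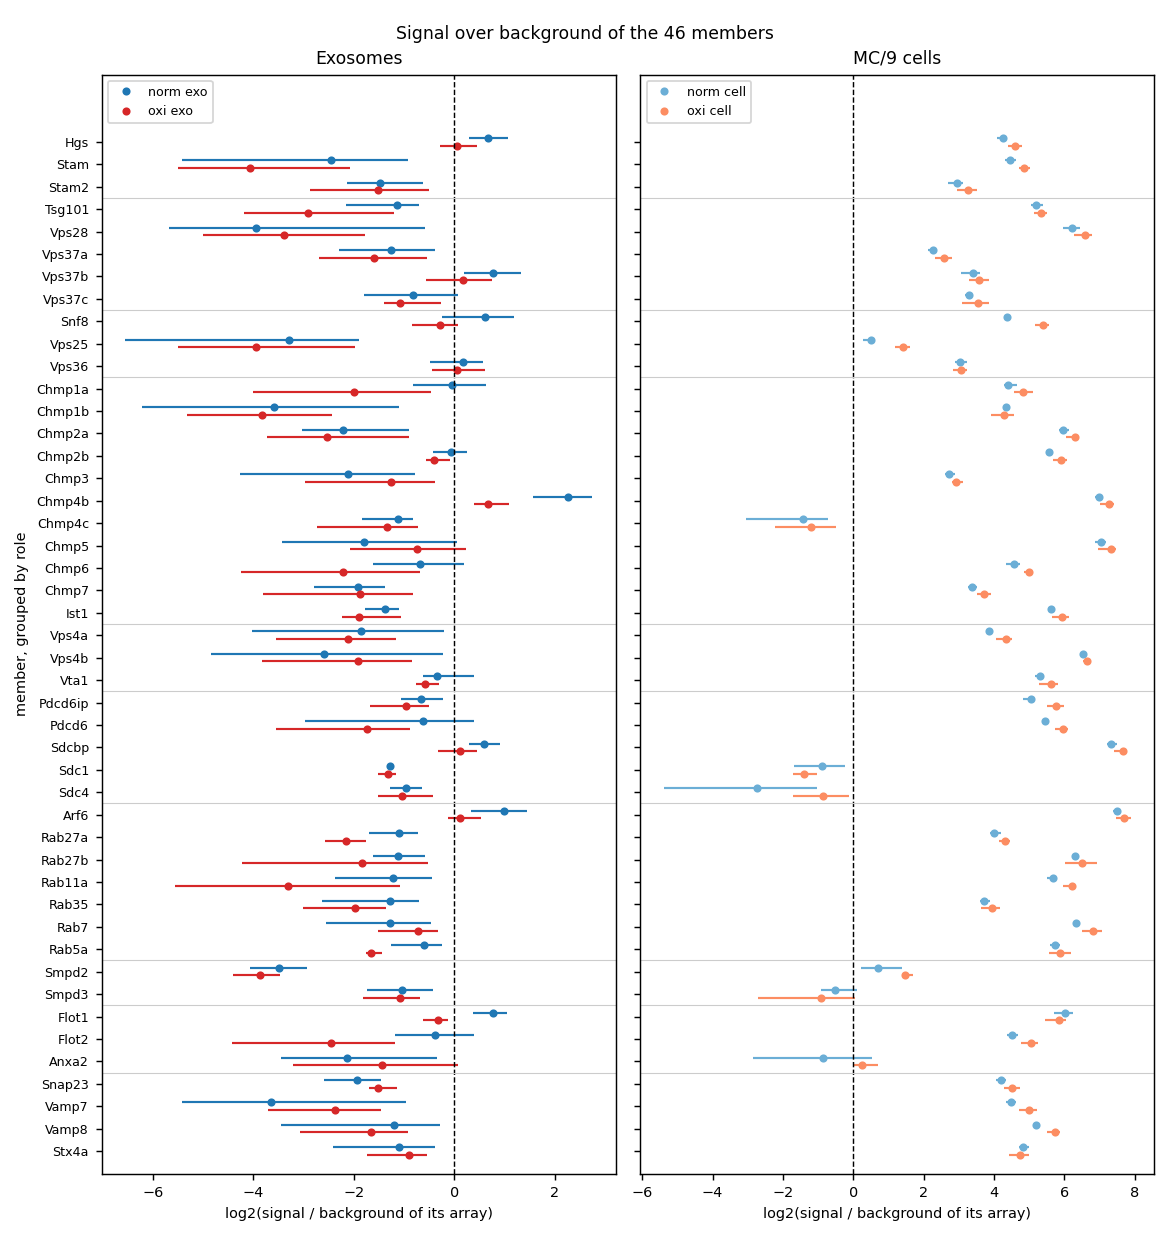
Signal of each of the 46 genes divided by the background of its array, on a log2 axis, for exosomes (left) and MC/9 cells (right). Points are means over 4 arrays, lines run from the lowest to the highest array, and the dashed line is the background: 41 genes lie wholly to its right in norm cell and 6 in norm exo.

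Chmp4b, the ESCRT-III subunit that forms most of the filament at the bud neck, had the clearest exosomal signal. Its values were 1284, 1278, 747 and 937 in norm exo and 381, 466, 371 and 315 in oxi exo, while the cells averaged 1833 ± 91.3 (norm) and 1858 ± 79.7 (oxi). The norm exo arrays were all above the oxi exo arrays, and both were below every cell array.

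Arf6, a GTPase of endosome recycling, read 481, 522, 314 and 436 in norm exo and 263, 319.8, 244 and 220.4 in oxi exo, and the cells averaged 2658 ± 134 (norm) and 2484 ± 59.3 (oxi). Flot1, a scaffold of membrane rafts, read 454, 327, 327 and 389 in norm exo and 215, 144, 191 and 220.1 in oxi exo, and the cells averaged 950.2 ± 121 (norm) and 689 ± 85.2 (oxi). Arf6 overlapped between the exosome groups at 1 array of each, and Flot1 did not overlap. Sdcbp, which encodes the adaptor syntenin, read 372, 246, 307 and 395 in norm exo and 264, 177, 329 and 292 in oxi exo, and the cells averaged 2346 ± 106 (norm) and 2441 ± 87.3 (oxi). Its exosome groups overlapped.

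Hgs, the ubiquitin-binding core of ESCRT-0, read 438, 243, 308 and 441 in norm exo and 209.9, 299.6, 209 and 293 in oxi exo, with cell means of 278 ± 25.0 (norm) and 291 ± 7.27 (oxi). Vps37b, an ESCRT-I subunit, read 312, 479.9, 287 and 442 in norm exo and 173, 369, 209 and 400.5 in oxi exo, with cell means of 154 ± 18.9 (norm) and 144 ± 9.02 (oxi). Both overlapped between the exosome groups, and both lay close to the exosome background there. Their cell signals lay far above the cell background of 14.6 (norm) and 12.0 (oxi).

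**Figure D2:**
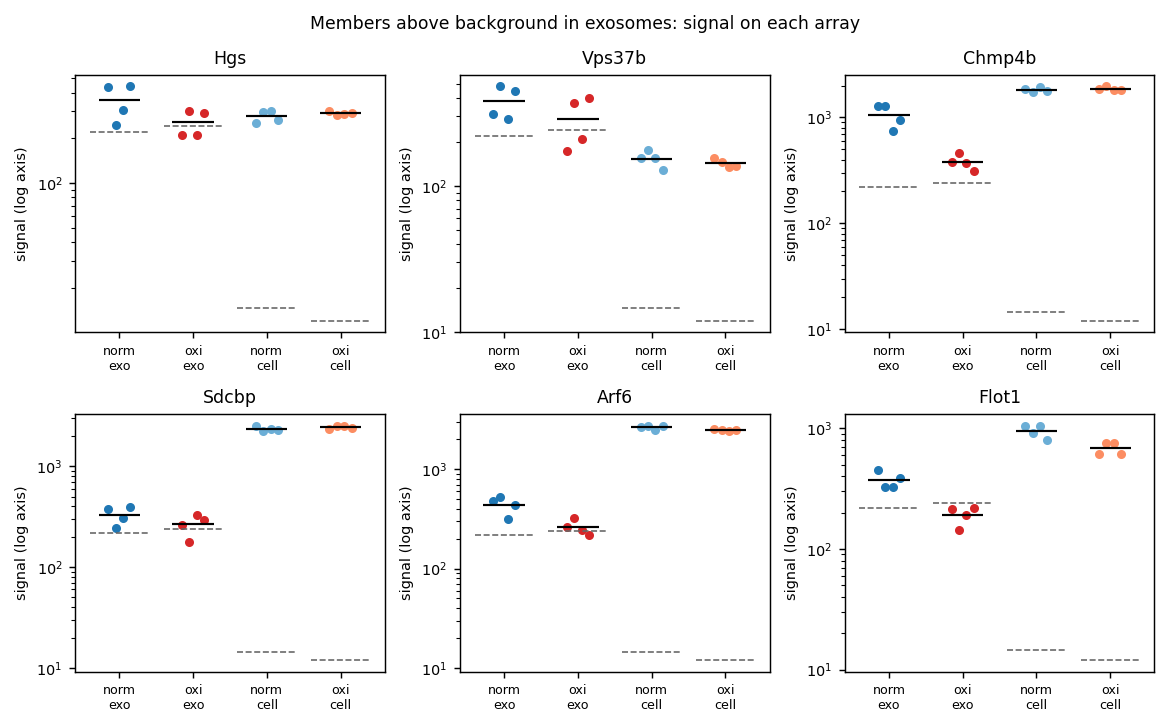
Signal on each array (points, log axis) of the 6 genes above background on all norm exo arrays, with the mean of each group (solid line) and the mean background of each group (dashed line). Chmp4b stands well clear of the exosome background, at 1061 ± 265 in norm exo and 383 ± 62.2 in oxi exo.

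The promoters of Chmp4b, the gene that changed in exosomes, and of Pdcd6ip, which encodes ALIX and changed in cells by 1 of its probe sets, are shown. Pdcd6ip was chosen because it rose in cells, had 1 promoter and held a match to a motif described below. Rab7 also rose and held a match, but had 2 promoters and was left out. Each promoter shown is the run of 250 bases that ends just before the start of the RefSeq transcript, in the GRCm38.p6 assembly, read 5' to 3' on the strand of the gene. Capitals mark matches, on either strand, to CACGTG, the core that MITF and TFEB recognise, and to TGACNNNGC, the core of the antioxidant response element. MITF is a mast cell factor and TFEB a regulator of lysosome genes. Chmp4b lies at chr2:154656776-154657025 on the plus strand, with 62.0% G and C and neither match, and Pdcd6ip at chr9:113708260-113708509 on the minus strand, with 56.0% G and C and 1 match to each core, which overlap and form a single run of capitals.
Chmp4b: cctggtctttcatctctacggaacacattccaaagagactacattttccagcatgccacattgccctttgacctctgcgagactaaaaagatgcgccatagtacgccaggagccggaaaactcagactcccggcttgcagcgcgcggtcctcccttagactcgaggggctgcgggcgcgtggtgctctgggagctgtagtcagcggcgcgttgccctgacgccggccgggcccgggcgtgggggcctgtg
Pdcd6ip: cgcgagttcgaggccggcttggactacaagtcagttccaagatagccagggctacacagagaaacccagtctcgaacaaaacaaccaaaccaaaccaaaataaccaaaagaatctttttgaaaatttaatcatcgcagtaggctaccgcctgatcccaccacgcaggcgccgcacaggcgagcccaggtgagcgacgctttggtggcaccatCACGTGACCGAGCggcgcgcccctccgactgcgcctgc
Of the 46 genes, 32 had a promoter in the RefSeq table. These 32 had 36 promoters, of which 4 held CACGTG (of Pdcd6ip, Rab27a, Rab5a and Smpd2), against 6.02% of all 32851 promoters, and 6 held TGACNNNGC (of Chmp1a, Chmp5, Pdcd6ip, Rab7, Tsg101 and Vps25), against 10.2%. Among the 11 genes that changed under oxidative stress in cells or exosomes, 8 had a promoter in the table, and 6 of these held neither core (Chmp4b, Flot2, Pdcd6, Rab11a, Stx4a, Vamp8). A match describes letters and no measured binding.

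Exosomes were set against the cells of the same condition to see which of these transcripts take a larger or smaller share of exosomal RNA. On the deposited scale 30 genes were lower and 7 higher in norm exo than in norm cell, and 9 did not pass the test (limma, adjusted p under 0.05). Among all genes 25.5% were lower and 54.5% higher. In oxi exo against oxi cell 32 were lower, 7 higher and 7 not called, against 27.2% and 55.6% of all genes. The median log2 difference was -1.57 over the 46 genes and 1.88 over all genes in the normal condition, and -2.13 and 2.19 under oxidative stress.

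The direction for the whole array depended on the scaling. With signals scaled to the spiked controls, 41 genes were lower and 0 higher in norm exo, with medians of -5.59 for the 46 genes and -2.14 for all genes. In oxi exo 42 were then lower and 0 higher, with medians of -6.41 and -2.10. With quantile normalization 28 were lower and 6 higher in norm exo, and 32 and 1 in oxi exo. Over all genes the calls in norm exo were 4648 lower and 9911 higher on the deposited scale, 9771 and 511 on the spiked scale and 4550 and 3838 after quantile normalization. The median of the 46 genes lay below that of all genes under each of these 3 scalings. In norm cell, however, 89.1% of the 46 genes and 50.8% of all genes were above background, and exosome arrays had a far higher background. This order can therefore not be told apart from the higher expression of the 46 genes in cells.

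Most of the lower calls set a cell signal against an exosome signal below background, and only a bound can then be given. Of the 30 lower genes in norm exo, 10 were above background on at least 1 exosome array, 17 had a bound and 3 (Chmp7, Vps4a, Rab35) had a cell signal too low for one. Of the 32 in oxi exo these were 5, 23 and 4 (Chmp1b, Chmp7, Rab27a, Rab35). For 7 of the lower genes in norm exo and 8 in oxi exo a dimmer probe set was called higher, among them Sdcbp, Rab27a, Rab27b and Vps4b, and none of these probe sets was above background on all 4 exosome arrays. One for Rab27b was above background on 1 norm exo and 2 oxi exo arrays.

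By their brightest probe sets, the GTPases, the SNARE proteins and the VPS4 group were called lower in exosomes. All 7 small GTPases were called lower in both conditions, and by these probe sets Arf6 alone was above background on any exosome array. Rab7, which directs late endosomes to lysosomes, had at least 5.39-fold less signal in norm exo and at least 5.68-fold less in oxi exo. By its brightest probe set Rab27b, the GTPase that docks endosomes and mast cell granules, was at least 5.35-fold (norm) and at least 4.5-fold (oxi) lower. A dimmer probe set of Rab27b, above background on 1 exosome array in each condition, was 4.52-fold (norm) and 4.47-fold (oxi) lower. Its remaining probe sets were called in both directions, with the higher call at 2.47 (norm) and 3.23 (oxi) on the log2 scale. The bounds for Rab27b therefore hold for its brightest probe set and not for the gene. The bound compares cells with the exosome background, averaged on the log2 scale, and takes no account of the spread between arrays. All 3 genes of the VPS4 group and all 4 SNARE genes were lower in both conditions, with Vps4b at least 6.22-fold (norm) and at least 4.96-fold (oxi) lower, and Vamp8 at least 2.46-fold and at least 2.67-fold. The median of the bounds was 2.47-fold in norm exo and 2.70-fold in oxi exo.

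Of the 11 ESCRT-III genes 8 were called lower and Chmp4c higher in norm exo, and 9 lower and Chmp4c higher in oxi exo. Of the lower ones, 4 (norm) and 2 (oxi) were above background on at least 1 exosome array, 3 and 5 had a bound, and Chmp7 in both conditions and Chmp1b in oxi exo had none. Chmp2a was at least 4.22-fold and at least 3.94-fold lower. Chmp4b, measured above background in all groups, differed by -0.82 ± 0.19 (SE) on the log2 scale in norm exo (limma, adjusted p = 0.00327) and by -2.29 ± 0.22 in oxi exo (adjusted p = 4.27e-05). After quantile normalization these became 0.57, with the opposite sign and past the test (adjusted p = 0.00416), and -0.50 (adjusted p = 0.152), and with Benjamini-Hochberg adjustment of the methods' paired test the first had an adjusted p of 0.0548. Outside ESCRT-III, Sdcbp differed by -2.85 ± 0.19 and -3.24 ± 0.24, and Arf6 by -2.62 ± 0.18 and -3.26 ± 0.22. A dimmer probe set of Sdcbp was called higher, at 2.85 in norm exo (adjusted p = 0.000454) and 3.98 in oxi exo (adjusted p = 0.000106). It was above background on 0 norm exo and 2 oxi exo arrays. Flot1 differed by -1.35 ± 0.20 in norm exo (adjusted p = 0.000254), a call lost after quantile normalization (-0.08, adjusted p = 0.776).

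The calls for the upstream ESCRT complexes were less one-sided. In norm cell, Stam2 (mean 114), Vps37a (69.7), Vps37b (154), Vps37c (143), Vps25 (20.7) and Vps36 (119) lay below the norm exo background of 218. A lower share of them in exosomes could not be told from background. Of the GTPases, SNARE genes and VPS4 group, only Rab35 (194) and Vps4a (213) lay below it. A difference between the complexes can therefore not be read from these calls. ESCRT-0 and ESCRT-I together had 3 lower genes in each condition (Stam, Tsg101 and Vps28), with Vps28 at least 4.97-fold (norm) and at least 4.80-fold (oxi) lower, and Vps37b was higher. Of ESCRT-II, Vps36 had no single direction. Its probe set of highest mean signal, above background on 3 norm exo and 2 oxi exo arrays, was higher in exosomes (1.04 and 1.33), whereas its brightest probe set in cells, above background on no exosome array, was called lower (adjusted p = 0.00502 and 0.00112). Snf8 was lower in oxi exo (-1.35 ± 0.26, adjusted p = 0.0013), where 1 array was above background, and not called in norm exo (0.14 ± 0.26, adjusted p = 0.63), and the gap between these values is the one tested below as the difference between the changes. Hgs was not called in either condition, at 0.32 ± 0.26 and -0.22 ± 0.27.

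Read from the probe set of highest mean signal, the 7 higher genes were Vps37b, Vps36 (with the reservation just given), Chmp4c, Sdc1, Sdc4, Smpd3 and Anxa2 in both conditions. The last 5 were above background on no exosome array, apart from Anxa2 on 1 oxi exo array, so their higher signal has the size of the exosome background and gives no fold. Vps37b was higher by 1.28 ± 0.26 in norm exo (adjusted p = 0.00147) and 0.92 ± 0.33 in oxi exo (adjusted p = 0.0263) on the deposited scale. On the spiked scale it was lower, at -2.74 and -3.37, and Hgs was then at -3.70 in norm exo.

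Under oxidative stress the cells changed 10 of the 46 transcripts, each by at most 1.66-fold. Higher were 7 genes (15.2%, against 6.49% of all genes), namely Snf8, Pdcd6ip, Flot2, Vamp8, Rab11a, Pdcd6 and Rab7, and lower were 3 (6.52%, against 5.36% of all genes), namely Flot1, Stx4a and Chmp1b. In norm cell 89.1% of the 46 genes but 50.8% of all genes were above background, so these shares do not compare genes of like expression. The median log2 change was 0.04 over the 46 genes and -0.09 over all genes. The 95% interval lay within 0.5 of no change on the log2 scale for 34 of the 46 genes, against 6044 of all 18193 genes. Its median width was 0.31 over the 46 genes and 1.24 over all genes.

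Snf8, the ESCRT-II subunit also named VPS22, rose most. It read 280.5, 311, 322 and 297 in norm cell and 512, 489, 494 and 504 in oxi cell, a rise of 0.73 ± 0.07 (SE) on the log2 scale or 1.66-fold (limma, adjusted p = 0.000129), with no overlap. The other genes of ESCRT-II did not pass, with Vps25 at 0.61 ± 0.22 (adjusted p = 0.115) and Vps36 at -0.26 ± 0.10 (adjusted p = 0.138). A second probe set of Vps36 was called in the opposite direction (0.38 ± 0.09, adjusted p = 0.0205).

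The probe sets of highest mean signal for ALIX and its calcium-binding partner ALG-2 (Pdcd6) both rose. Pdcd6ip read 491, 493, 522 and 436 in norm cell and 685, 609, 659 and 636 in oxi cell, a rise of 0.42 ± 0.06 (adjusted p = 0.00182). Pdcd6 read 662, 616, 648 and 642 in norm cell and 738, 752, 768 and 737 in oxi cell, a rise of 0.22 ± 0.06 (adjusted p = 0.0264). Every oxi cell array was above every norm cell array for both. The other 4 probe sets of Pdcd6ip, which read lower signals, did not pass the test and had changes from -0.11 to 0.22, so the rise rests on 1 probe set. The brightest of these 4 in cells gave 0.04 ± 0.09. The probe set that rose carries the manufacturer's suffix for probe sets that match several transcripts, so related transcripts may share its signal. Sdcbp had a change of 0.06 ± 0.05, and the syndecans were not measured above background.

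Of the 7 GTPases, Rab11a and Rab7 rose. Rab11a, of the recycling endosome, read 766, 764, 758 and 701 in norm cell and 868, 880.1, 945 and 864 in oxi cell, a rise of 0.25 ± 0.06 (adjusted p = 0.0142). Rab7 read 1152, 1156, 1186 and 1185 in norm cell and 1446, 1344, 1379 and 1275 in oxi cell, a rise of 0.22 ± 0.06 (adjusted p = 0.0286). The groups did not overlap for either gene, the second probe set of Rab7 rose too (0.21 ± 0.06, adjusted p = 0.0498) and the second of Rab11a did not pass (-0.06 ± 0.06). The docking GTPases gave 0.01 ± 0.07 for Rab27a and -0.11 ± 0.10 for Rab27b. A second probe set of Arf6 fell (-0.40 ± 0.07, adjusted p = 0.00327) while the brighter one gave -0.10 ± 0.05 (adjusted p = 0.312).

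The SNARE proteins divided. Vamp8, a vesicle SNARE of mast cell granules, read 554, 521, 534 and 529 in norm cell and 639.9, 631, 642 and 639.5 in oxi cell, a rise of 0.26 ± 0.06 (adjusted p = 0.0131). Stx4a, a syntaxin of the plasma membrane, read 425, 375, 464 and 403 in norm cell and 342, 294, 333 and 302 in oxi cell, a change of -0.39 ± 0.06 (adjusted p = 0.00275). Neither overlapped between the groups. Vamp7 (0.22 ± 0.07, adjusted p = 0.0532) and Snap23 (0.03 ± 0.07) did not pass.

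By their probe sets of highest mean signal, the flotillins, partners in the same raft scaffold, moved in opposite directions. Flot1 read 1055, 913, 1037 and 796 in norm cell and 615, 762, 763 and 615 in oxi cell, a change of -0.46 ± 0.08 (adjusted p = 0.00329). Flot2 read 358, 320.4, 341 and 315 in norm cell and 414, 377, 429.99 and 378 in oxi cell, a rise of 0.26 ± 0.06 (adjusted p = 0.0207), and a second probe set of Flot2 gave 0.12 ± 0.07. The groups did not overlap for the probe sets with array values here. Of ESCRT-III only Chmp1b, which is linked to the disassembly of the filament, passed, at 285, 299.6, 285 and 304 in norm cell and 258, 229.8, 229 and 209 in oxi cell, a change of -0.35 ± 0.08 without overlap (adjusted p = 0.0170). Its second probe set gave -0.30 ± 0.10 (adjusted p = 0.0957).

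**Figure D3:**
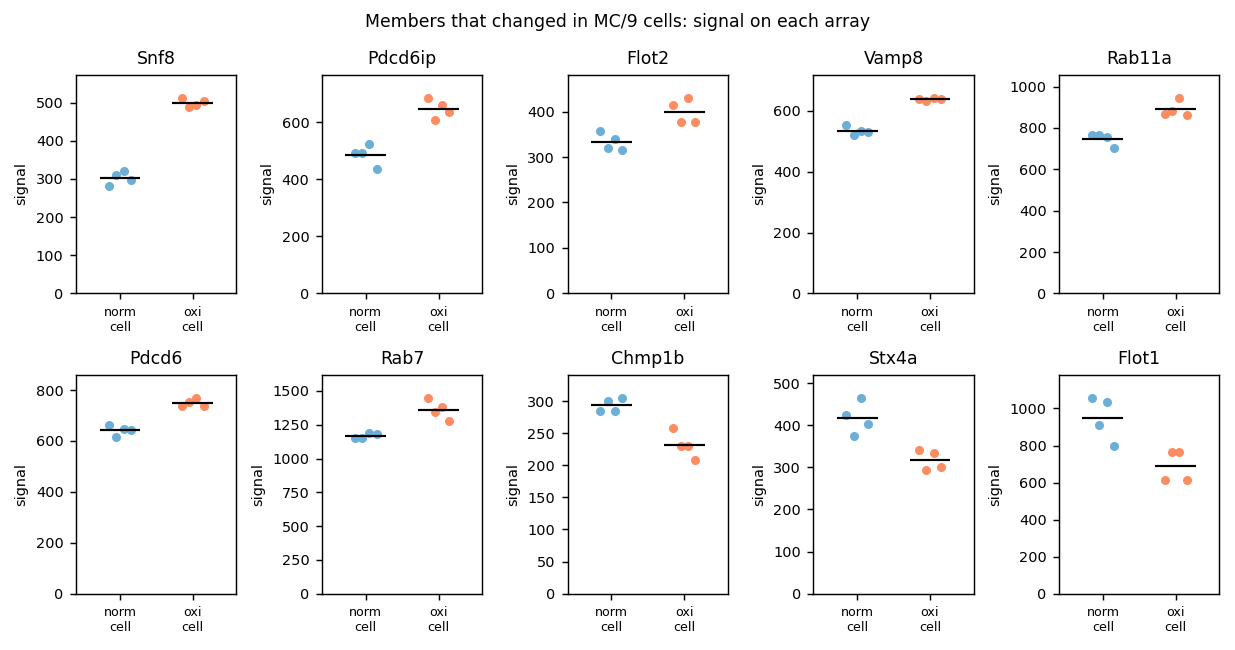
Signal on each norm cell and oxi cell array (points) with the group mean (line), for the 10 genes that changed in MC/9 cells under oxidative stress, ordered from the largest rise to the largest fall. The axes start at 0: Snf8 goes from 302 ± 17.8 to 499.9 ± 10.2, and the other changes are smaller.

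The largest change by size, 1.60 ± 0.91 for Sdc4, was not called, and its signals of 6.79, 0.343, 7.19 and 1.35 in norm cell and 9.97, 7.54, 3.61 and 6.98 in oxi cell were all below background. With a single replicate number left out, Snf8, Pdcd6ip, Flot1 and Stx4a stayed past the threshold each time. Rab7 and Flot2 lost it whichever number was left out, Pdcd6 without 2, 3 or 4, Rab11a without 3 or 4, and Vamp8 and Chmp1b without 2 or 4, with adjusted p between 0.0507 and 0.124. The number of higher genes was then 5 without replicate 1, 3 without replicate 2 or 3 and 2 without replicate 4. Scaling to the spiked controls moved the median of all genes from -0.09 to 0.19. On that scale 25 of the 46 genes were higher and 0 lower, and Flot1 (-0.19), Stx4a (-0.11) and Chmp1b (-0.07) no longer passed, while over all genes the calls went from 975 lower and 1180 higher to 174 and 3722.

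In exosomes a single gene of the machinery changed under oxidative stress. Chmp4b fell from 1061 ± 265 in norm exo to 383 ± 62.2 in oxi exo, a log2 change of -1.45 ± 0.22 (SE) or 2.73-fold (limma, adjusted p = 0.00132), and was lower in 4 of 4 pairs of equal replicate number. This was 2.17% of the genes, against 2.27% of all genes lower, and 0 genes were higher, against 0.022% of all genes. Most of all genes were not above background in exosomes. Of the 1301 genes above it in norm exo, 28.4% (369) fell and 0 rose, and their median change was -0.66. For the 592 above it in both exosome groups, Chmp4b among them, falls numbered 151 (25.5%) and rises 0, at a median change of -0.21. The 773 above it in oxi exo had 151 falls, 2 rises and a median change of 0.03. These sets were chosen by the same signals that are compared, so their shares and medians depend partly on that choice. Whether Chmp4b fell more than the genes of these sets was not tested. At an unadjusted p under 0.05, 7 of the 46 genes were lower and 0 higher by limma, against 7.99% and 3.77% of all genes, and by the methods' paired test 5 were lower and 1 higher. The call for Chmp4b was lost after quantile normalization (-1.09, adjusted p = 0.0837), where the calls over all genes went from 413 lower and 4 higher to 178 and 43, and with Benjamini-Hochberg adjustment of the methods' paired test (adjusted p = 0.516).

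The second, dimmer probe set of Chmp4b was not called. Its change was -0.24 ± 0.34 (adjusted p = 0.882), and its signal was above background on 3 norm exo arrays and no oxi exo array. The brighter probe set carries the suffix by which the manufacturer marks probe sets that match several transcripts, so related transcripts may share its signal.

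The other exosomal genes of the machinery gave no call. Flot1 changed by -0.96 ± 0.29 (adjusted p = 0.158) and was above background on no oxi exo array. Its norm exo signal against the oxi exo background gave a bound of 1.55-fold, which takes no account of the spread between arrays. Flot1 passed the test where signals were held at no less than background (adjusted p = 0.0106). That test took only genes above background on all arrays of a compared group. Flot1 entered it through norm exo alone, and its oxi exo values were replaced by background, so this pass gives no support for a fall. Arf6 gave -0.73 ± 0.27 (adjusted p = 0.316), Hgs -0.48 ± 0.30, Vps37b -0.46 ± 0.27 and Sdcbp -0.33 ± 0.28. The largest change by size was that of Rab11a, -1.96 ± 0.89 (adjusted p = 0.490), with 162, 135, 48.1 and 71.9 in norm exo and 121, 71.2, 7.53 and 5.13 in oxi exo, all below background and overlapping. Over the 46 genes the median change was -0.21, against 0.00 over all genes. The 95% interval lay within 0.5 of no change for 0 genes, and its median width was 2.71 on the log2 scale in exosomes and 0.31 in cells, so changes of the size seen in cells were not detectable in exosomes.

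**Figure D4:**
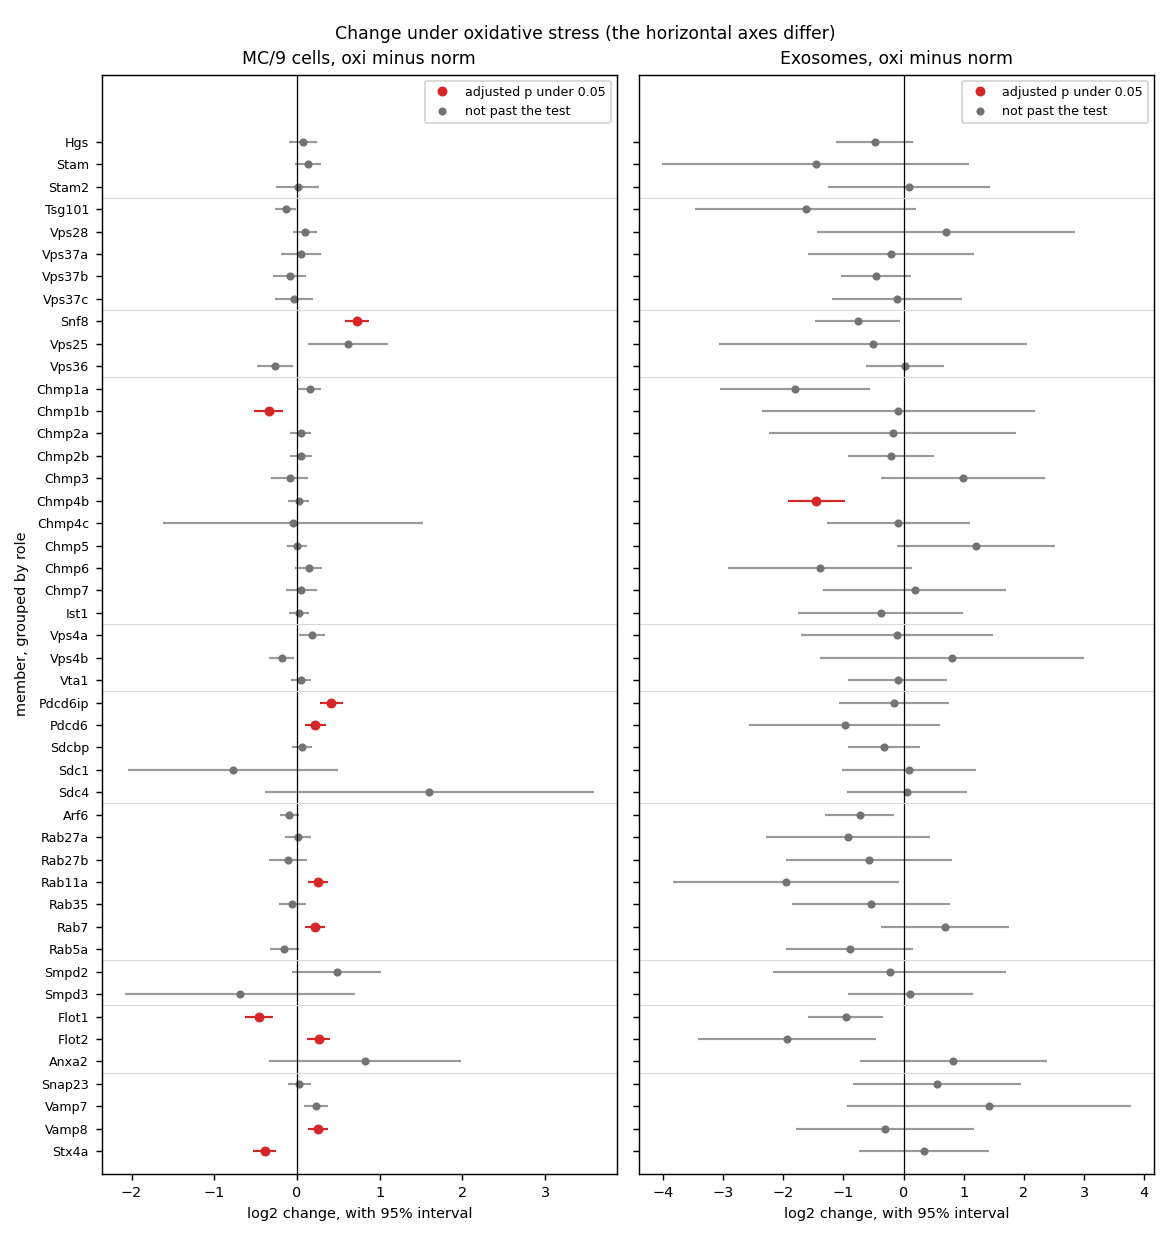
Log2 change under oxidative stress of each of the 46 genes in MC/9 cells (left) and exosomes (right), with its 95% interval; red marks an adjusted p under 0.05. The horizontal axes differ: the intervals have a median width of 0.31 in cells and 2.71 in exosomes.

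Whether exosomes and cells changed differently was tested on the difference between the changes, which uses all 16 arrays. Chmp4b alone passed, with a difference of -1.47 ± 0.23 on the log2 scale (limma, adjusted p = 0.0107), lower in exosomes, and its change in cells was 0.02 ± 0.06. This was 2.17% of the genes, against 2.03% of all genes, and 0 were in the other direction, against 0.066% of all genes. At an unadjusted p under 0.05 there were 7 and 1, against 9.27% and 5.86% of all genes. The call was lost without replicate 1 (-1.37, adjusted p = 0.0981), replicate 2 (-1.41, adjusted p = 0.119) or replicate 4 (-1.43, adjusted p = 0.0638), and after quantile normalization (-1.07, adjusted p = 0.0863). Snf8, which rose in cells, gave -1.49 ± 0.37 (adjusted p = 0.0847), and Rab11a -2.21 ± 0.64 (adjusted p = 0.148). The median over the 46 genes was -0.38, against 0.12 over all genes.

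Further genes of the same pathways were counted in 2 lists. Among 35 other ESCRT and late endosome genes, 29 were above background on all arrays of each cell group, 1 rose (2.86%, against 6.49% of all genes) and 1 fell (2.86%, against 5.36%) in cells, and 1 fell (2.86%, against 2.27%) and 0 rose in exosomes. Cep55, which recruits ESCRT to the midbody, rose in cells from 364 ± 21.8 to 536 ± 8.39 (0.56 ± 0.06, adjusted p = 0.000417), and Mvb12b, an ESCRT-I subunit, fell from 453 ± 12.8 to 369 ± 13.8 (-0.29 ± 0.06, adjusted p = 0.0124). Zfyve19, a regulator of the ESCRT abscission checkpoint, was called lower in oxi exo than in norm exo (adjusted p = 0.0206), and its change differed from that in cells (adjusted p = 0.00874). Its signals of 209.9 ± 47.2 and 26.2 ± 11.0 were above background on 2 norm exo arrays and no oxi exo array, so no fold is given.

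Among 41 other genes of vesicle docking and fusion, 35 were above background on all arrays of each cell group, 10 rose (24.4%, against 6.49% of all genes) and 1 fell (2.44%, against 5.36%) in cells, and 2 fell (4.88%, against 2.27%) and 0 rose in exosomes. Above background in norm cell were 85.4% of this list and 50.8% of all genes, so the shares in cells again compare genes of unlike expression. The largest rises in cells were those of Anxa5, a calcium-dependent membrane binder, from 1591 ± 49.3 to 2590.2 ± 105 (0.70 ± 0.05, adjusted p = 3.67e-05), and of the SNARE gene Ykt6, from 313 ± 44.0 to 487 ± 66.6 (0.64 ± 0.08, adjusted p = 0.000793). In exosomes Rab14, an endosomal GTPase, fell from 431 ± 149 to 149 ± 105 (-1.82 ± 0.41, adjusted p = 0.0286), above background on 3 norm exo arrays and 1 oxi exo array. Unc13d, the priming factor Munc13-4 of mast cell granules, fell from 581 ± 164 to 248 ± 87.5 (-1.26 ± 0.28, adjusted p = 0.0279), above background on all norm exo arrays and 2 oxi exo arrays. Rab4a, of early recycling, was the gene of this list whose changes differed between exosomes and cells (adjusted p = 0.00867), but its exosomal signal was above background on no array and no size is given.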

How the data were processed

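The deposited values were signal intensities on a linear scale, which the authors made from 16 scanned arrays with MAS5.0 in GCOS 1.2, per the labels and the study's methods, and scaled to a trimmed mean of 100 with 2% of probe sets trimmed at each end. The study's text names the array as the 430A 2.0, and the table held the 45101 probe sets of the Mouse 430 2.0. After 64 control probe sets were left out, 45037 were tested.

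Groups were taken from the sample titles. Log2 signals of the 8 arrays of a comparison went into a linear model of limma 3.58.1 (R 4.3.3; lmFit, then eBayes with a mean-variance trend). Replicate number entered as a blocking factor, since a paired test is named in the study's methods. P-values were two-sided, with Benjamini-Hochberg adjustment across every tested probe set and a threshold of 0.05. All adjusted p-values for genes are from limma. The difference between the changes was fitted on the 8 differences within replicate numbers. A gene was above background in a group where it passed on all 4 arrays the 95th percentile of the background probe sets. These were 208 probe sets for 181 genes of odorant, taste and vomeronasal receptors, keratin-associated proteins, crystallins, prolactins, caseins, defensins, zona pellucida and enamel. Spread is SD for signals and SE for log2 differences, and the number of arrays limits the precision.

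The 46 genes and the other lists were chosen with earlier results of these data known. All 46 were named. Values on every array were given for genes above background in an exosome group, for genes that passed under oxidative stress and for the largest change of each such comparison. Of each pathway list, the genes of largest change among those that passed were named. Probe sets annotated with several symbols, including some of Chmp1b and Vps25, were left out, as were the study's experiments on viability and protein oxidation, which were not analysed here. The fits were tested on simulated data. The alternatives were quantile normalization, scaling to 9 spiked control probe sets, a floor at background, a filter above the median signal, log2(signal + 100), no replicate block, the methods' paired t-test, each replicate number left out, other background percentiles, the brightest probe set in cells, and 2 chosen after the data were seen, signal over background floored at 1 and any probe set of a gene. Python 3.11.15 with numpy 2.4.6, pandas 2.3.3 and matplotlib 3.10.9 was used for the rest.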

Additional observations from a re-analysis of the deposited data

Results flagged for a closer look

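Chmp4b was marked because its change under oxidative stress in exosomes differed from that in cells, by -1.47 on the log2 scale (limma, adjusted p = 0.0107). Single arrays were also looked for that lay far from the other 3 of their group, among 15 named genes in 4 groups, where chance marks about 1 group in 20, and 2 of the 60 groups were marked. Arf6 read 2572 in oxi cell replicate 1, against 2443 to 2462 on the others. Rab11a read 700.6 in norm cell replicate 4, against 758 to 766 on the others, and its rise in cells had an adjusted p of 0.0861 without that replicate number.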

How the results depend on the processing

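The counts of lower genes in exosomes against cells stayed within 1.5 times under all alternatives. Higher genes, 7 in each condition, became 3 and 3 with the filter, 0 and 0 on the spiked scale or as signal over background, and in oxi exo 11 with the floor and 1 after quantile normalization. In exosomes under stress, 1 lower and 0 higher became 3 lower with the floor or as signal over background (6 genes tested), 5 and 1 with the methods' paired t-test, and 0 lower after its adjustment or quantile normalization. Those 6 genes were all above background in norm exo, so the choice of genes favoured falls. In cells, 3 lower and 7 higher became 0 and 0 with the adjusted t-test, 0 and 25 on the spiked scale, and 0 and 24 as signal over background (42 tested). Higher genes there were 3 with the floor, 11 with the unadjusted t-test and 2 to 5 with a replicate number left out. For the difference between the changes, 1 lower and 0 higher became 4 and 2 with the floor, 3 and 0 with log2(signal + 100), 4 and 1 with the t-test, 0 lower after its adjustment or quantile normalization, 29 as signal over background, and 0 to 2 lower with a number left out. Genes above background were 1 in norm exo at the 99th percentile, and in oxi exo 3 at the 90th, 0 at the 99th and 1 to 2 with a number left out.

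Signs turned for Hgs (-3.70 spiked, -3.57 signal over background in norm exo, 0.42 quantile in oxi exo), Vps37b (norm exo -2.74 and -2.61, oxi exo -3.37 and -3.22 likewise, cells 0.19 and 0.19), Arf6 in cells (0.18 and 0.19), and Chmp4b (0.57 quantile in norm exo, and in cells -0.022 quantile and -0.035 to 0.062 with a replicate number left out, below 0 without replicate 2). The cause was not tested.

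Deviations from the group means, over all probe sets, did not correlate between arrays of equal replicate number (-0.0164 to 0.0224). Such deviations can be mostly array noise and the labels do not mention pairs, so whether equal numbers mark paired cultures stays undecided. Without the replicate block the counts over the 46 genes were as before, except 2 lower for the difference between the changes, and the calls over all genes in cells were 1119 lower and 1311 higher.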
